A study of Trichosurus vulpecula with 116 samples.

Results

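Circadian clock genes of the brushtail possum, a nocturnal marsupial, were followed through liver development and across tissues. The members were 10 genes chosen by name (PER1, PER2, PER3, CRY1, CRY2, CLOCK, NR1D1, NR1D2, DBP and TEF), and 9 of them were found among the 23816 annotated genes of the deposited table. DBP was not analysed here. The 9 genes lie, in the mTriVul1.pri assembly, at chr7:260244407-260267125 on the plus strand (PER1), chr7:12978743-13027496 on the minus strand (PER2), chr2:21774092-21806277 on the minus strand (PER3), chr5:290549089-290600889 on the minus strand (CRY1), chr6:257478590-257506346 on the plus strand (CRY2), chr6:155143577-155259940 on the plus strand (CLOCK), chr4:185035894-185044166 on the plus strand (NR1D1), chr5:31024516-31074352 on the minus strand (NR1D2) and chr5:299732962-299759170 on the plus strand (TEF).

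The study sequenced RNA from 116 tissue libraries of possums from the Dunedin region of New Zealand. Livers of 33 pouch young, 7 juveniles and 44 adults were compared here, with 9 kidneys and 8 brains of pouch young, the further tissues of 1 pouch young (Sandy) and 2 tongues. No animal was treated or genetically altered, and the labels group them by stage, sex, coat colour, tissue, origin, trapping location and library kit, with the date in the title for some. Coat colour and location were not compared here. The pouch young were from under 2 to 109 days postpartum (dpp), 18 male and 15 female. The youngest, labelled as under 2 dpp, was entered as 2 in the fit on age. Of the pouch young, 8 came from a captive colony and 25 from the wild with a trapped mother. The juveniles were wild and older than pouch young, still with the mother, and comprised 3 males and 4 females. The adults comprised 29 males and 15 females. Libraries were made with the NEXTFLEX kit for 7 pouch young, 3 juveniles and 15 adults and with the NEBNext kit for 26, 4 and 29. The 9 kidneys came from pouch young of 10 to 85 dpp, 5 male and 4 female, 3 from the colony and 6 wild. The 8 brains came from pouch young of 10 to 62 dpp, 3 male and 5 female, 2 from the colony and 6 wild. In each of these tissues 1 library was NEXTFLEX, and the other 8 and 7 were NEBNext. A pouch young liver had between 2846616 and 104559227 reads assigned to genes (median 19097745). The bounds were 8160891 and 42929396 for juveniles (median 17677953) and 4913366 and 115914844 for adults (median 22713642).

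The circadian clock is a loop in which the transcription factors CLOCK and BMAL1 (gene symbol ARNTL here) switch on the genes of the period (PER) and cryptochrome (CRY) proteins, which then return to the nucleus and switch CLOCK and BMAL1 off. A second loop runs through the nuclear receptors NR1D1 and NR1D2 (REV-ERB alpha and beta), which repress ARNTL, CLOCK and CRY1 and are opposed by the ROR receptors, and PAR bZIP factors such as TEF, HLF and DBP carry the rhythm to output genes. In the liver of other mammals the clock is set by feeding, body temperature and glucocorticoids as well as by the brain, and most of these transcripts rise and fall over a day. The hour of collection is given in no label used here. A difference in mean level, in the phase of a rhythm or in its amplitude therefore cannot be told apart between groups, and in whole tissue neither can fewer cells of a type and less RNA per cell.

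Values are log2 CPM (reads on a gene scaled to the library total), without correction for gene length, so levels are compared between samples of a gene and not between genes. The labelled tissues were checked by the summed CPM of 6 hepatocyte genes, led by AHSG, which ran from 12600 to 111000 in the pouch young livers, from 34300 to 124000 in the juvenile livers and from 21300 to 54600 in the adult livers. The same sum ran from 33.5 to 1740 in the kidneys and from 1.05 to 230 in the brains. In 2 further pouch young livers, which the study removed, it was only 1.60 and 3.15, beside 5930 and 6400 for red cell precursor genes, and these were left out of the main comparisons. The tissue of 1 pouch young is disputed within its own labels, which name both liver and kidney, and the library titled liver held 43100 CPM of hepatocyte genes and 0.491 CPM of kidney genes. It was kept, and no call in the pouch young livers against adults changed without it. The labels give the trapping location Corstorphine or Ravensbourne for 3 adult livers of June and July of the later collection year, whose titles carry Cors or Rav. Their PER1 levels were 5.44, 7.28 and 4.04, their CRY2 levels 6.08, 6.38 and 3.08 and their PER3 levels 1.84, 2.54 and 1.74, against adult medians of 3.24, 1.62 and -0.69. They were not apart from all other adults, since a liver of September of the earlier year was at 5.38, 4.40 and 2.42, above the last of the 3 in each gene. The 3 were picked by location after their values were seen, and some results are also given without them.

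Pouch young and adult livers differed in 6 of the 9 clock genes, with 4 higher and 2 lower in pouch young (limma, Benjamini-Hochberg adjusted p over 19121 genes). This was not more than the genome as a whole, since 47.3% of all genes were higher and 22.6% lower in pouch young by the same rule, and the median difference was 0.37 over the clock genes and 0.36 over all genes. The differences of PER2, PER3 and CLOCK passed the test in each of the 14 alternatives to this fit.

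**Figure D1:**
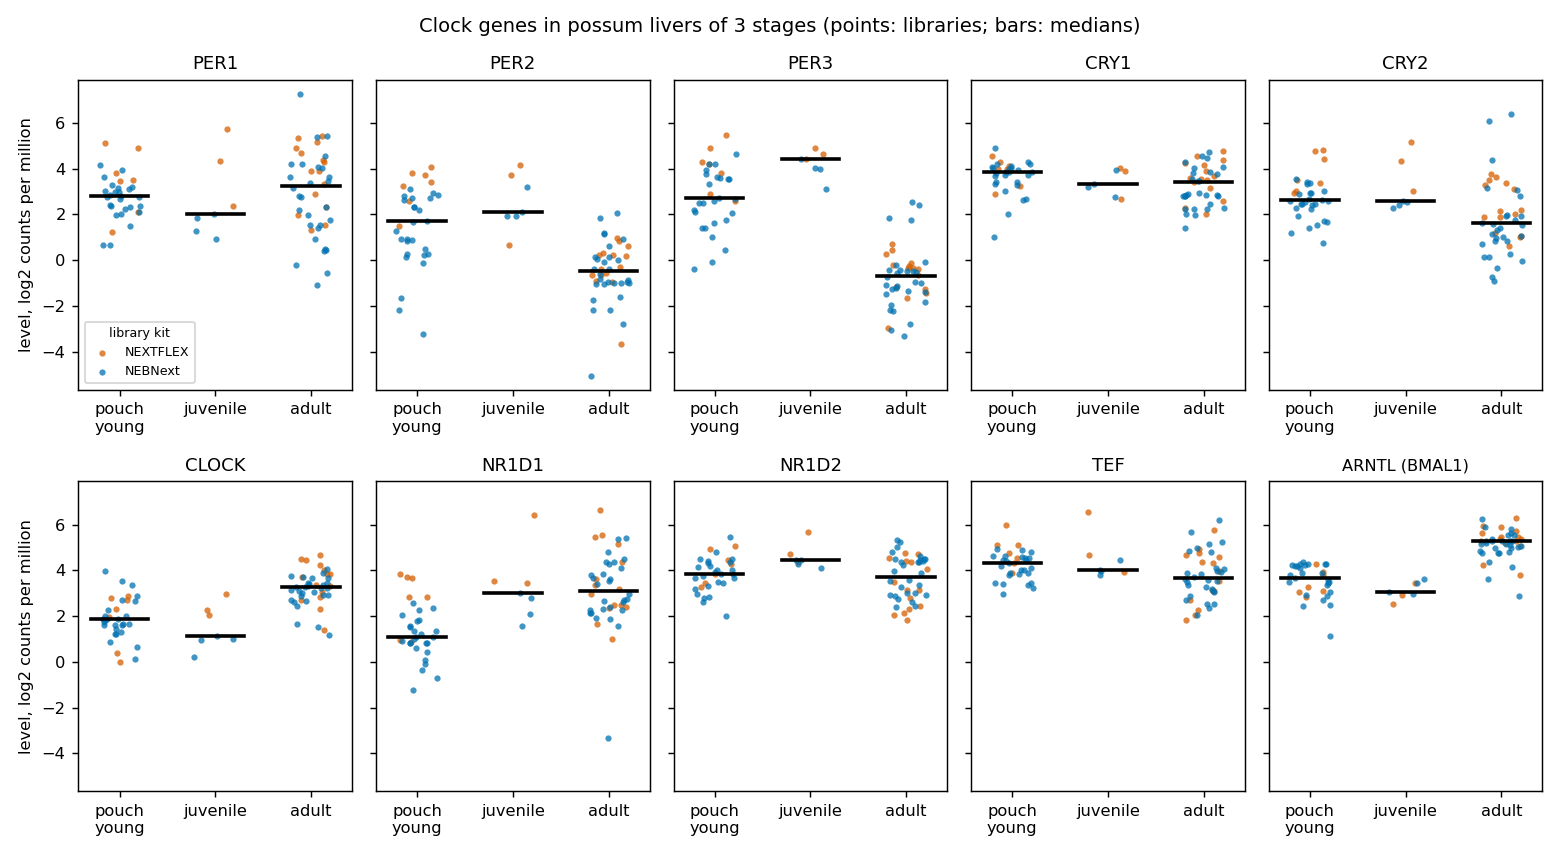
Level of 9 clock genes and of ARNTL (BMAL1) in livers of pouch young (n = 33), juveniles (n = 7) and adults (n = 44). The vertical axis is log2 CPM, each point is 1 library coloured by library kit, and bars are medians. Adult points lie low for PER2 and PER3 and high for CLOCK and ARNTL, and every juvenile lies above every adult for PER3.

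PER3, a period protein that is a modulator of the loop, had a lowest, median and highest level of -0.40, 2.73 and 5.50 in pouch young livers and of -3.33, -0.69 and 2.54 in adult livers. The 7 juvenile livers were at 3.13, 4.01, 4.02, 4.44, 4.45, 4.64 and 4.92. All juveniles thus lay above all adults, which was so for 0.12% of all genes, while pouch young and adults overlapped. PER3 was higher than in adults by 3.58 in pouch young (SE 0.30, limma adjusted p = 9.72e-19) and by 4.98 in juveniles (SE 0.53, limma adjusted p = 1.52e-12). These 2 comparisons share the adult livers.

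PER2, a repressor of CLOCK and BMAL1, ran from -3.23 through a median of 1.73 to 4.08 in pouch young livers and from -5.05 through -0.48 to 2.07 in adult livers. The juveniles were at 0.68, 1.95, 1.95, 2.12, 3.22, 3.74 and 4.16. Adults lay mostly below the other stages, with overlap at both ages. PER2 was higher than in adults by 2.06 in pouch young (SE 0.34, limma adjusted p = 1.28e-07) and by 3.05 in juveniles (SE 0.60, limma adjusted p = 4.33e-05). The adult values rest on few reads, with a median of 22 reads for PER2 and 18 for PER3. With reads weighted by their precision (limma-voom) the differences of pouch young from adults were 2.23 for PER2 and 3.64 for PER3 (adjusted p = 1e-08 and 6.64e-19).

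PER1, the period gene most directly induced by acute signals such as glucocorticoids, had a lowest, median and highest level of 0.65, 2.81 and 5.15 in pouch young and of -1.08, 3.24 and 7.28 in adults, and adults spanned the whole range of pouch young. The mean difference was -0.18 (SE 0.35, limma adjusted p = 0.661), whereas 6 pouch young against their own mothers, described with the pairs, gave -1.66 and were called. Its arithmetic mean, to which the few high adult livers contribute most, was 8.86 CPM in pouch young and 16.3 CPM in adults.

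The cryptochromes are the other repressors of the loop. CRY1 ran from 1.01 through 3.85 to 4.92 in pouch young and from 1.42 through 3.44 to 4.79 in adults, a difference of 0.37 (SE 0.19, limma adjusted p = 0.0709). CRY2 ran from 0.75 through 2.65 to 4.82 in pouch young and from -0.92 through 1.62 to 6.38 in adults. The groups overlapped over most of their range for both genes. CRY2 was higher in pouch young by 0.89 (SE 0.30, limma adjusted p = 0.00692), but the arithmetic means were 8.19 CPM in pouch young and 7.73 CPM in adults, a log2 ratio of only 0.08. Without the 3 livers titled Cors or Rav the difference was 1.13 (limma adjusted p = 9.22e-05), where 47.6% of all genes were higher and 22.4% lower.

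CLOCK, the activating partner of BMAL1, was lower in the young. Its level ran from -0.02 through 1.86 to 3.97 in pouch young livers and from 1.18 through 3.29 to 4.69 in adult livers, and the juveniles were at 0.23, 0.94, 1.0, 1.13, 2.05, 2.27 and 2.97. Adults were the higher group, with overlap. The difference from adults was -1.31 in pouch young (SE 0.20, limma adjusted p = 1.1e-08) and -1.69 in juveniles (SE 0.35, limma adjusted p = 8.56e-05).

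NR1D1 was the only member that differed between pouch young and juveniles. It ran from -1.24 through 1.10 to 3.84 in pouch young livers, from 1.56 through 3.0 to 6.42 in juvenile livers and from -3.33, a liver without NR1D1 reads, through 3.09 to 6.66 in adult livers. Pouch young were low, and juveniles and adults had like medians. NR1D1 was lower in pouch young than in adults by 1.85 (-1.85, SE 0.33, limma adjusted p = 9.53e-07) and lower than in juveniles by 1.90 (-1.90, SE 0.60, limma adjusted p = 0.0215), where 12.7% of all genes were higher and 3.48% lower. The juvenile with the highest value, Sheila, was at 6.42, and without it the difference of pouch young from juveniles was no longer called. In the NEXTFLEX libraries alone the difference from adults was -0.84 (limma adjusted p = 0.327).

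NR1D2, the second REV-ERB, ran from 2.03 through 3.85 to 5.48 in pouch young, from 4.13 through 4.45 to 5.70 in juveniles and from 1.84 through 3.73 to 5.34 in adults. The difference of pouch young from adults was 0.19 (SE 0.20, limma adjusted p = 0.379). TEF, which carries the rhythm to output genes, ran from 2.96 through 4.34 to 5.98 in pouch young and from 1.84 through 3.67 to 6.21 in adults. The stages overlapped over most of their range for both genes. TEF was higher in pouch young by 0.49 (SE 0.21, limma adjusted p = 0.0309), a call that was lost with scaling to the 75th percentile and in each kit alone, and the log2 ratio of its arithmetic means was 0.24. In juveniles against adults 5 members were called, where 13.5% of all genes were higher and 10.5% lower. Besides PER2, PER3 and CLOCK these were CRY2 (1.36, SE 0.53, limma adjusted p = 0.0495) and NR1D2 (0.92, SE 0.35, limma adjusted p = 0.0411), and the last 2 calls were lost without Sheila. The log2 ratios of their arithmetic means were 0.68 and 0.73.

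Of 17 further clock genes, 7 passed the test as higher in pouch young and 5 as higher in adults, with a median difference of 0.19, beside 47.3% and 22.6% of all genes and a median of 0.36. In juveniles 3 were higher and 2 lower than in adults, beside 13.5% and 10.5% of all genes. The 3 include RORB (1.16, limma adjusted p = 0.0207). It had at most 3 reads in 6 of 7 juvenile and 44 of 44 adult livers and is given no direction. The activators ARNTL, NPAS2 and RORA were lower in pouch young. ARNTL (BMAL1) fell from a median of 5.27 in adults to 3.65 in pouch young and 3.07 in juveniles, with differences of -1.59 (SE 0.16, limma adjusted p = 1.86e-15) and -2.0 (SE 0.27, limma adjusted p = 1.29e-08). NPAS2, a paralogue of CLOCK that also pairs with BMAL1, differed by -1.50 and -1.86 (limma adjusted p = 5.03e-12 and 2.15e-06), and the activating receptor RORA by -1.04 in pouch young (limma adjusted p = 2.3e-08). The repressor BHLHE41 differed by -0.94 in pouch young.

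CIART and HLF were higher at both young stages. CIART, a repressor of CLOCK and BMAL1, was higher by 2.77 in pouch young and by 3.0 in juveniles (limma adjusted p = 1.54e-12 and 1.8e-05), although 30 of 44 adult livers had at most 3 CIART reads. HLF, a PAR bZIP factor like TEF, was higher by 1.57 and 2.69 (limma adjusted p = 1.68e-07 and 3.48e-06). Also higher in pouch young were TIMELESS (2.62), which acts mainly in DNA replication in mammals, the deadenylase NOCT (1.68) and BTRC (0.94), which targets period proteins for degradation. RORB (0.87) and ARNTL2 (0.70) passed the test too, but RORB had no reads in 25 of 33 pouch young and 36 of 44 adult livers and ARNTL2 none in 20 and 39. A library without reads has a value set by its depth, so these differences are given no direction. NFIL3 (-0.27), BHLHE40 (0.50) and the kinases CSNK1D (0.19) and CSNK1E (-0.17) did not pass the test. Of 12 tested genes that are under clock control in the liver of other mammals, 3 were higher and 7 lower in pouch young, with a median of -0.42, beside 47.3% higher and 22.6% lower of all genes.

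Transcripts that mark other cells differed between the stages. All 7 red cell precursor genes found were higher in pouch young than in adults, with a median difference of 6.26 and a summed level of 194 CPM (median) against 1.63, led by ALAS2. All 5 genes of dividing cells were higher as well (median difference 5.06), and the hepatocyte sum had a median of 58500 CPM in pouch young and 30400 in adults. The part of these cells in the differences between stages was not tested.

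The livers of the mothers of some young allow a comparison within pairs. For 12 young (6 pouch young and 6 juveniles), the liver of the mother was in the table, and 1 mother had a young of each kind. PER3 was higher in the young in 12 of 12 pairs, with mothers between -1.96 and 0.43, young between 2.91 and 4.92 and a median difference of 4.79 (2.48 to 6.31). PER2 was also higher in 12 of 12, with a median difference of 3.64 (1.24 to 7.39). No mother reached the lowest young in PER3.

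Of all genes, 4.25% were higher in all 12 young and 5.19% lower. HLF and CIART were higher in all 12 young as well, and ARNTL and NPAS2 were lower in all 12 (median differences -1.81 and -2.09). CLOCK was lower in 10 and PER1 in 9 of the 12, while CRY1 was higher in 6 and lower in 6. The other members lay between, with CRY2 higher in 10, NR1D2 in 9, TEF in 8 and NR1D1 in 4.

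With the pair as a block, 6 pouch young against their mothers gave 4.33 for PER3 (SE 0.44, limma adjusted p = 6.2e-04), 3.37 for PER2 (SE 0.29, limma adjusted p = 3.77e-04), -1.54 for CLOCK (limma adjusted p = 0.0359) and -1.66 for PER1 (limma adjusted p = 0.0131), where 16.1% of all genes were higher and 12.6% lower. For 5 juveniles the values were 5.35 for PER3, 4.59 for PER2 and -1.71 for CLOCK (limma adjusted p = 1.08e-04, 0.0019 and 0.0417), where 18.8% were higher and 10.6% lower. The PER2, PER3 and CLOCK differences thus had the same direction within pairs as between the whole stages, which share these livers. CRY2, NR1D1 and TEF were not called in pairs of pouch young, and PER1 was called there but not between the whole stages. The paired pouch young were of 22, 66, 74, 84, 99 and 102 dpp. The library of 66 dpp was NEBNext and the others were NEXTFLEX, and all mothers are female. The whole stages also hold younger pouch young, mostly NEBNext libraries and male adults, so the 2 comparisons differ in age, kit and sex.

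**Figure D2:**
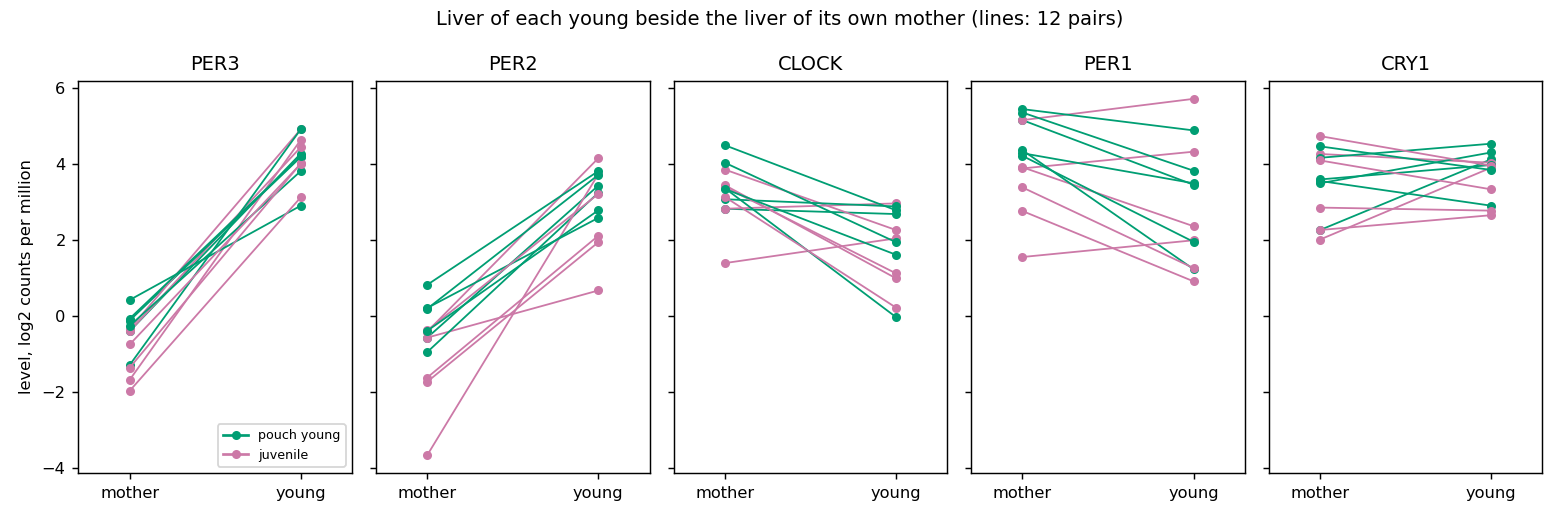
Level of 5 clock genes in the liver of the mother and of her young for 12 pairs, in log2 CPM. Each line is 1 pair, coloured by the stage of the young. Every line rises for PER3 and PER2, 10 of 12 fall for CLOCK and 9 of 12 fall for PER1, and CRY1 rises in 6 and falls in 6.

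Of the 9 members, 3 varied less between pouch young than between adults. Deviations from the stage median were smaller in pouch young for PER1 (-0.77, SE 0.21, limma adjusted p = 0.00401), TEF (-0.37, limma adjusted p = 0.0206) and NR1D2 (-0.27, limma adjusted p = 0.046). The background was 1.84% of all genes with a smaller and 26.9% with a larger spread in pouch young. The SD of PER1 was 1.02 in pouch young and 1.85 in adults. No member was called in the NEXTFLEX livers alone, and fewer than 3 were called in the NEBNext livers alone. Without the 3 livers titled Cors or Rav, chosen to be left out after the values were seen, only PER1 was called (-0.69, limma adjusted p = 0.00474), where 1.72% of all genes had a smaller and 26.7% a larger spread.

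Pairs of members were then compared across animals within each stage, after centring on library kit. For the 9 members, 72 correlations were computed in the 2 stages, within a family of 396. A pair was called where each of its genes passed limma with the other as predictor, with Benjamini-Hochberg adjustment over all genes, and the larger of the 2 adjusted p-values is given. Permutation p-values, two-sided, were drawn 100000 times within kit, and 1e-05 is the smallest they can give.

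**Figure D3:**
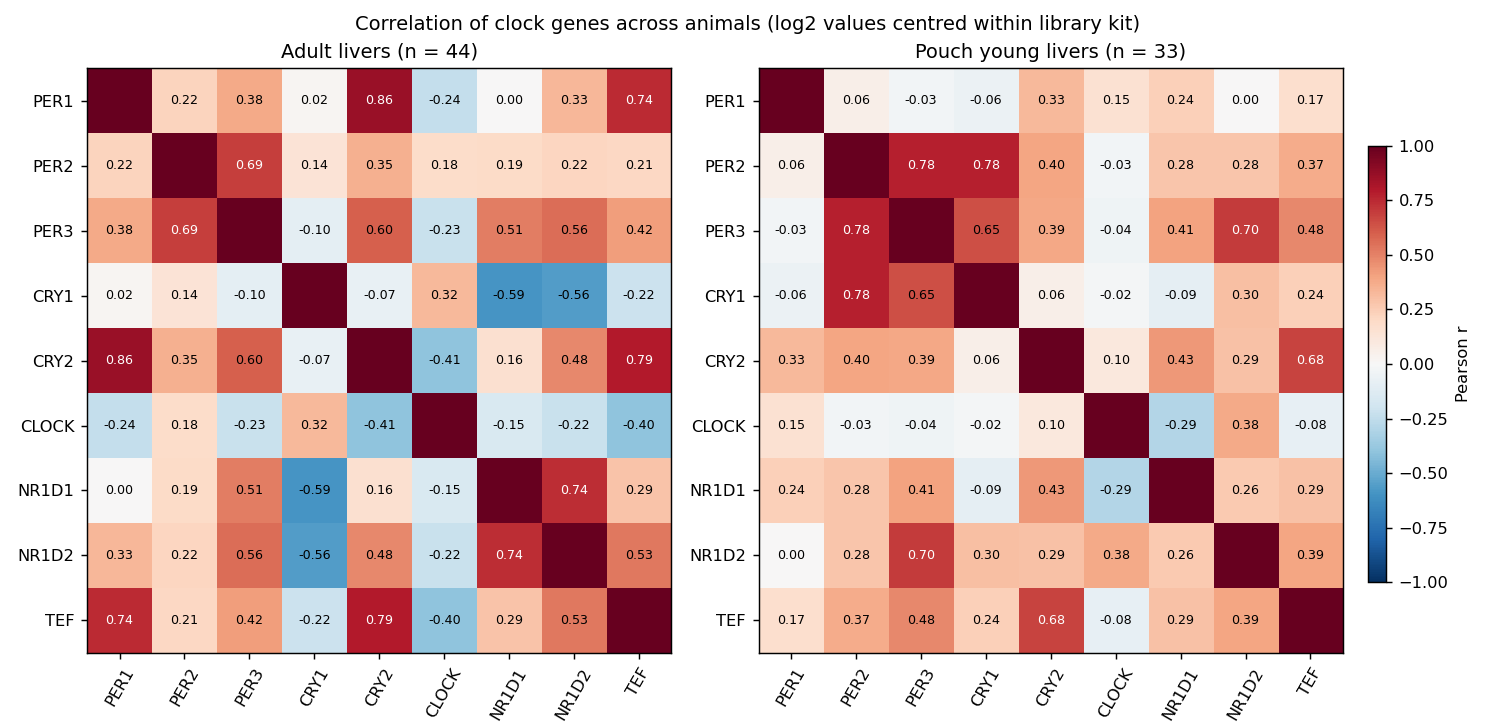
Pearson r between 9 clock genes across 44 adult livers (left) and 33 pouch young livers (right), on log2 values centred within library kit. In adults PER1, CRY2 and TEF are mutually high and CRY1 is negative with NR1D1 and NR1D2, and in pouch young PER2, PER3 and CRY1 are mutually high.

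In adult livers 8 of 36 pairs were called, all positive. Of these, 5 fell in 3 groups and the other 3 joined PER3 to members of the other groups. PER1, CRY2 and TEF made the first group. PER1 and CRY2 had r = 0.865 (rho 0.852, both permutation p = 1e-05, limma adjusted p = 3.27e-10), with 0.71 in the NEXTFLEX and 0.90 in the NEBNext livers and 0.824 without the 2 livers farthest out in PER1. Of 17848 genes, CRY2 had the highest correlation with PER1, and PER1 the highest with CRY2. CRY2 and TEF had r = 0.791 (rho 0.844, limma adjusted p = 1.74e-06) and PER1 and TEF r = 0.744 (rho 0.759, limma adjusted p = 3.66e-05), and these were the 2 genes closest to TEF among 17848. Over all genes, 1.66% were called with PER1, 2.32% with CRY2 and 0.118% with TEF.

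NR1D1 and NR1D2 made the second group, with r = 0.737 (rho 0.80, permutation p = 1e-05, limma adjusted p = 1.36e-04), 0.88 in NEXTFLEX, 0.658 in NEBNext and 0.766 without the 2 farthest livers. Each was the gene most correlated with the other among 17848, where 2.78% were called with NR1D1 and 0.896% with NR1D2. In the NEXTFLEX livers both REV-ERBs were lower on average in March than in June and July, as given below, and r was not adjusted for month. PER2 and PER3 made the third, with r = 0.688 (rho 0.608, permutation p = 1e-05, limma adjusted p = 0.00161), where 6.29% of genes were called with PER2 and 4.52% with PER3. That correlation was 0.205 in the 15 NEXTFLEX livers and 0.809 in the 29 NEBNext livers. PER3 was also called with CRY2 (r = 0.60, rho 0.455, limma adjusted p = 0.00521), NR1D2 (r = 0.556, rho 0.544, limma adjusted p = 0.0252) and NR1D1 (r = 0.509, rho 0.517, limma adjusted p = 0.0267). Without the 3 livers titled Cors or Rav the last 3 calls were lost (limma adjusted p = 0.418, 0.158 and 0.0846) and the other 5 were made again. Within kits, the NEBNext livers alone gave the pairs of PER1, CRY2 and TEF, PER2 with PER3, PER3 with CRY2 and a negative pair of CLOCK with TEF, and the NEXTFLEX livers alone gave NR1D1 with NR1D2 and PER2 with CLOCK.

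CRY1 ran opposite to the REV-ERBs in adults. CRY1 and NR1D1 had r = -0.591 (rho -0.64, permutation p = 2e-05, -0.848 in NEXTFLEX, -0.472 in NEBNext and -0.551 without the 2 farthest livers), the lowest of 17848 genes with CRY1. In the NEXTFLEX livers CRY1 was higher on average in March, and this r was not adjusted for month either. CRY1 and NR1D2 had r = -0.56 (rho -0.556, permutation p = 1.2e-04), the third lowest. Neither pair was called, since the larger limma adjusted p was 0.0821 and 0.154, in a gene for which only 0.0112% of all genes, or 2 genes, were called. CLOCK was called with no other member, although 30.2% of all genes were called with it. With its partner ARNTL and its paralogue NPAS2 it had r = 0.681 and 0.647 (rho 0.564 and 0.632, permutation p = 2e-05 for both r).

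**Figure D4:**
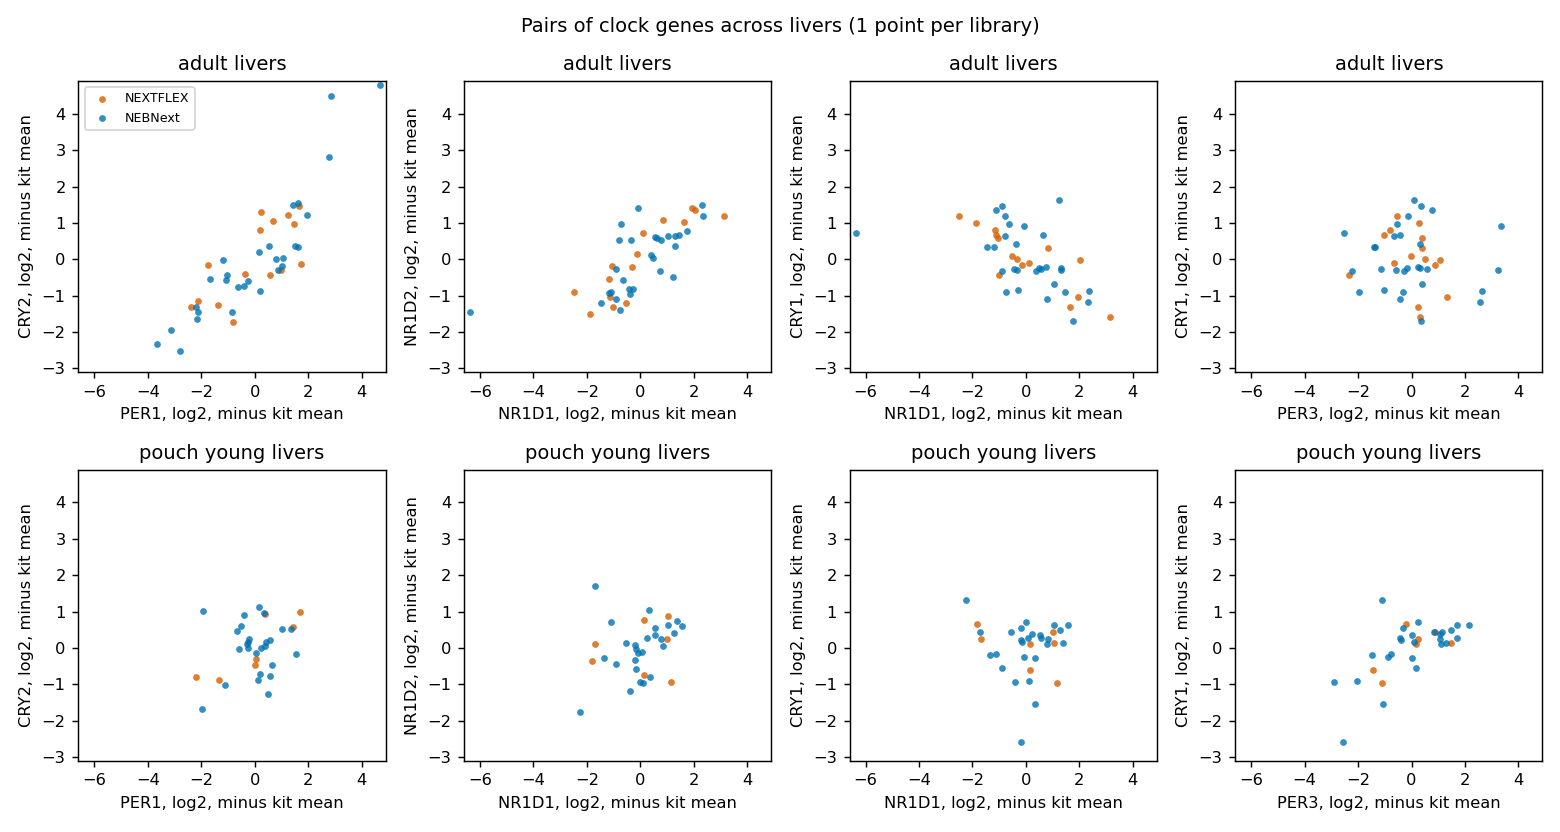
Levels of 4 pairs of clock genes across adult livers (top, n = 44) and pouch young livers (bottom, n = 33), with both axes in log2 CPM minus the mean of the library kit and each point 1 library. PER1 and CRY2 rise together in adults (r = 0.865), CRY1 falls with NR1D1 in adults (r = -0.591), and CRY1 rises with PER3 in pouch young (r = 0.648). In pouch young PER1 with CRY2 was not called (r = 0.328, and 0.0971 in the NEBNext livers).

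The genes outside the members that were most like each of them in adult livers, among 12442 with a median of at least 20 reads (12443 for PER3), are given here as a description. PER1 was nearest to KLF9 (r = 0.782), a glucocorticoid-induced transcription factor, SALL1 (0.78), NOCT (0.767), TOB2 (0.755) and APOA5 (0.753), and lowest with KLHL8 (-0.714), CNR1 (-0.655) and RNF125 (-0.618). CRY2 was nearest to DDIT4 (0.753), a stress- and glucocorticoid-induced inhibitor of mTOR signalling, NOCT (0.738), BCAR1 (0.73), TOB2 (0.729) and CSRNP1 (0.724), and lowest with RNF125 (-0.768), KLHL8 (-0.754) and KCNJ11 (-0.657). TEF was nearest to TOB2 (0.736), S1PR1 (0.646), KLF9 (0.631), LOC118846254 (0.609) and GCH1 (0.606), and lowest with LOC118844146 (-0.613), CPB2 (-0.608) and OSBPL6 (-0.601). TOB2 was in the top 5 of all 3 genes.

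Among the genes nearest to CRY1 were NFIL3 (0.633), THUMPD2 (0.618), ARNTL (0.594) and LONRF2 (0.553). NFIL3 represses through the elements that the PAR bZIP factors bind. CRY1 was lowest, after NR1D1, with LOC118856113 (-0.581), CDC25B (-0.522) and DHRS3 (-0.484). NR1D1 was nearest to YPEL1 (0.733), BHLHE41 (0.721), CDC25B (0.712), RIPOR1 (0.711) and VWCE (0.695), and lowest with ATP6V1D (-0.626), OSTC (-0.574) and LOC118851825 (-0.563). NR1D2 was nearest to CDC25B (0.726), a cell cycle phosphatase, CABLES1 (0.722), ASPSCR1 (0.712), ABTB1 (0.712) and UPP2 (0.683), and lowest with LOC118841094 (-0.607), CARD19 (-0.578) and NOP10 (-0.539). CDC25B was thus near both REV-ERBs and far from CRY1.

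PER2 was nearest to PLXNB1 (0.737), RARA (0.685), CBX5 (0.675), PPFIA1 (0.661) and ADARB1 (0.657), and lowest with CLDN3 (-0.569), PEX11G (-0.567) and LOC118828895 (-0.544). Among those nearest to PER3 were MAP4K2 (0.73), OGG1 (0.696), CHD3 (0.678) and TIE1 (0.678), and it was lowest with MCFD2 (-0.653), LOC118846151 (-0.631) and RNF125 (-0.63). CLOCK had no clock gene near the top. It was nearest to FAM199X (0.891), DENND4A (0.89), PHC3 (0.885), ZKSCAN1 (0.881) and BEND2 (0.879), and lowest with LOC118846374 (-0.801), LOC118839067 (-0.788) and MEA1 (-0.788).

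Glucocorticoid-responsive genes, a list chosen with earlier results of these data known, correlated with PER1, CRY2 and TEF in adults. The list holds KLF9, the gene outside the members nearest to PER1 above (r = 0.782), so the p-values given here are descriptive. The mean log2 level of 7 such genes (FKBP5, TSC22D3, ZBTB16, SGK1, KLF9, DUSP1 and TAT) had r = 0.76 with PER1 (rho 0.758, both permutation p = 1e-05, 0.728 without the 2 farthest livers, 0.722 in NEXTFLEX and 0.78 in NEBNext). It had r = 0.678 with CRY2 and 0.511 with TEF (rho 0.653 and 0.564, permutation p = 1e-05 and 3.9e-04 for r). All 3 stayed under 0.05 after Benjamini-Hochberg adjustment over 324 relations of the members with gene lists, depth and core clock genes, as did 45 of the 162 relations in adults and 44 of the 162 in pouch young. The other 8 gene lists had r between -0.244 and 0.402 with PER1 in adults, between -0.283 and 0.424 with CRY2 and between -0.222 and 0.332 with TEF. Of these 8 lists, 2 with PER1 and 2 with CRY2 were also under 0.05 after that adjustment, and none with TEF. How a mean over genes outside these lists correlates with PER1 was not tested. In pouch young the r of PER1 with these genes was 0.409. Of the core clock genes, CIART had r = 0.711 with PER1 and 0.728 with CRY2, on a median of 2 CIART reads and with 9 livers without any, so depth sets part of its spread. BHLHE41 was high with NR1D1 (0.721) and HLF with NR1D2 (0.573).

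In pouch young livers 4 of 36 pairs were called, and they joined PER2, PER3, CRY1 and NR1D2. Kit was the only covariate in this fit. PER2 and PER3 rose with age in these livers, as given below, and the pairs are given without adjustment for age. PER2 and PER3 had r = 0.778 (rho 0.766, both permutation p = 1e-05, limma adjusted p = 1.21e-05), PER2 and CRY1 r = 0.775 (rho 0.741, limma adjusted p = 1.64e-05), PER3 and NR1D2 r = 0.70 (rho 0.726, limma adjusted p = 0.00843) and PER3 and CRY1 r = 0.648 (rho 0.555, limma adjusted p = 9.61e-04). In the 26 NEBNext livers they were 0.773, 0.777, 0.671 and 0.643. Much of the genome covaried with these members in pouch young, since 42.3% of all genes were called with PER2, 34.1% with PER3, 38% with CRY1 and 5.51% with NR1D2. PER3 with NR1D2 was not called in the NEBNext livers alone.

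PER2, PER3 and CRY1 also correlated with the levels of cell type markers in pouch young. The mean level of the hepatocyte genes had r = 0.689 with PER2, 0.627 with PER3, 0.571 with CRY1 and -0.597 with CLOCK, and that of the endothelial genes had 0.708, 0.577 and 0.774 with the first 3. The hepatocyte values were 0.765, 0.728, 0.674 and -0.631 in the 26 NEBNext livers. In the 7 NEXTFLEX livers they were -0.712, -0.575, -0.756 and -0.744, with the sign turned for PER2, PER3 and CRY1. With the red cell precursor level as a covariate, added after the values were seen, the 4 pairs were called again. With the hepatocyte level, added likewise, PER3 with CRY1 was lost, the other 3 were called again, and CLOCK was called with PER2, PER3, CRY1 and NR1D2.

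Of the 8 pairs called in adults, PER2 with PER3 and PER3 with NR1D2 were also called in pouch young. CRY2 and TEF had r = 0.679 (rho 0.623, permutation p = 1e-05), and CRY2 stood at place 4 of 18181 genes by correlation with TEF, but the pair was not called (larger limma adjusted p = 0.166). PER1 and CRY2 had r = 0.328 (permutation p = 0.0754), with 0.855 in the 7 NEXTFLEX and 0.0971 in the 26 NEBNext livers. NR1D1 and NR1D2 had r = 0.261 (permutation p = 0.146) and CRY1 and NR1D1 r = -0.0929 (permutation p = 0.602). The genes most like each member, among 12840 with a median of at least 20 reads, were TICAM1 (0.917), FLT4 (0.911) and CD101 (0.911) for PER2, AHR (0.872), MIA2 (0.871) and SLC39A14 (0.861) for PER3, and included VEGFA (0.911) and LOC118839268 (0.907) for CRY1. For CLOCK they were BPTF (0.928), RFX7 (0.915) and PRDM15 (0.912), for CRY2 ESRP2 (0.82), SLC38A3 (0.758) and BCAR1 (0.756), and for NR1D2 MTSS1 (0.759), ABLIM1 (0.756) and ARHGEF7 (0.751). PER1 was nearest to ATXN2L (0.726), TONSL (0.70) and EPHB2 (0.694), NR1D1 to LOC118837757 (0.659), DVL1 (0.63) and LOC118834155 (0.623), and TEF to PHYHD1 (0.713), GLS2 (0.708) and LOC118847867 (0.699). BCAR1 was near CRY2 in both stages.

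Whether a pair differed between the stages was tested as the difference of its standardised slopes. Of 36 pairs, 2 were called, both with a lower slope in adults, PER2 with CRY1 (-0.64, larger limma adjusted p = 0.0421) and PER3 with CRY1 (-0.75, larger limma adjusted p = 0.0202). Over all genes 14.3% differed in their slope on PER2, 20.4% on PER3 and 12.8% on CRY1. In adults the r of CRY1 was 0.135 with PER2 and -0.0981 with PER3. In the NEBNext livers alone neither pair was called. With the age of the pouch young removed PER3 with CRY1 was called (-0.71, larger limma adjusted p = 0.0212) and PER2 with CRY1 was not (-0.63, larger limma adjusted p = 0.0597). For PER1 with CRY2 and for NR1D1 with NR1D2 a difference between the stages was not called, and on simulated data this test recovered only 3 of 28 pairs that differed.

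The date in the title is the only time given for the adults, and the month was read from it for 43 livers. Winter (June to August, 25 livers) was compared with autumn (March to May, 16 livers), with kit as a covariate. No member was called and neither was any other of 17766 genes (0% in each direction, limma), with NR1D2 the only member at an unadjusted p under 0.05 (0.58, SE 0.29, limma unadjusted p = 0.0478, adjusted p = 1). Each kit is given on its own below, since the kits hold different months.

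Among the NEXTFLEX livers, NR1D2 was at 1.84, 2.04, 2.14, 2.30, 2.45 and 2.80 in March, at 3.13, 3.48, 4.43 and 4.53 in June and at 3.16, 4.08, 4.71 and 4.75 in July. The 8 winter livers lay above the 6 autumn livers without overlap, which was so for 0.139% of 15879 genes. The difference was 1.77 (exact permutation p = 6.66e-04, two-sided, the smallest that 8 against 6 can give, limma adjusted p = 0.123). NR1D1 was at 1.02, 1.65, 2.35, 2.40, 2.51 and 2.99 in March, at 3.19, 3.38, 4.36 and 6.66 in June and at 2.47, 3.62, 5.47 and 5.55 in July, a difference of 2.18 (exact permutation p = 0.002, limma adjusted p = 0.337) with 1 winter liver inside the March range. CRY1 ran the other way, from 3.15 to 4.79 in March and from 2.02 to 4.17 in June and July, a difference of -0.80 (exact permutation p = 0.04). Of the 9 members, 5 were higher and 1 lower in winter at an exact p under 0.05, the others being PER3 (1.27), CRY2 (1.31) and TEF (1.14). By the same test 8.6% of all genes were higher and 1.28% lower. These p-values are not adjusted over genes, and after adjustment limma called 0% of all genes in each direction in these livers.

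Among the NEBNext livers, 17 of winter and 10 of autumn, the same differences were -0.07 for NR1D2, -0.23 for NR1D1 and 0.67 for CRY1 (permutation p = 0.852, 0.823 and 0.0585). Without the 3 winter livers titled Cors or Rav, left out after the values were seen, they were -0.36, -0.57 and 0.80 (permutation p = 0.268, 0.472 and 0.0254, not adjusted over genes). The mean level of NR1D2 in the NEBNext livers of the earlier year was 2.74 in March (1 liver), 3.63 in July (4), 3.36 in August (7) and 3.64 in September (2). In the later year it was 3.62 in April (3), 4.23 in May (6) and 4.13 in June (4), and the 2 livers of July were at 5.24 and 5.34. Both July livers and 1 of the June livers (5.04) are those titled Cors or Rav, and the June mean without it was 3.82. No later July value is left without them. CRY1 was at 4.58, 3.22, 3.89 and 3.19 in the months of the earlier year and at 2.65, 2.40 and 2.77 in April, May and June of the later year (June 2.95 without the liver titled Cors), and at 4.04 and 1.96 in the 2 July livers. The NEBNext autumn livers were from the later year except for 1, and the winter livers from both years, so year and season are mixed in this kit, and the NEXTFLEX autumn livers come from 1 month, so month and season cannot be told apart there. The difference between the kits was 1.84 for NR1D2 (limma unadjusted p = 0.00129, adjusted p = 0.489), 2.41 for NR1D1 (adjusted p = 0.587) and -1.47 for CRY1 (adjusted p = 0.51) and was not called, with 0.00563% of all genes called higher.

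**Figure D5:**
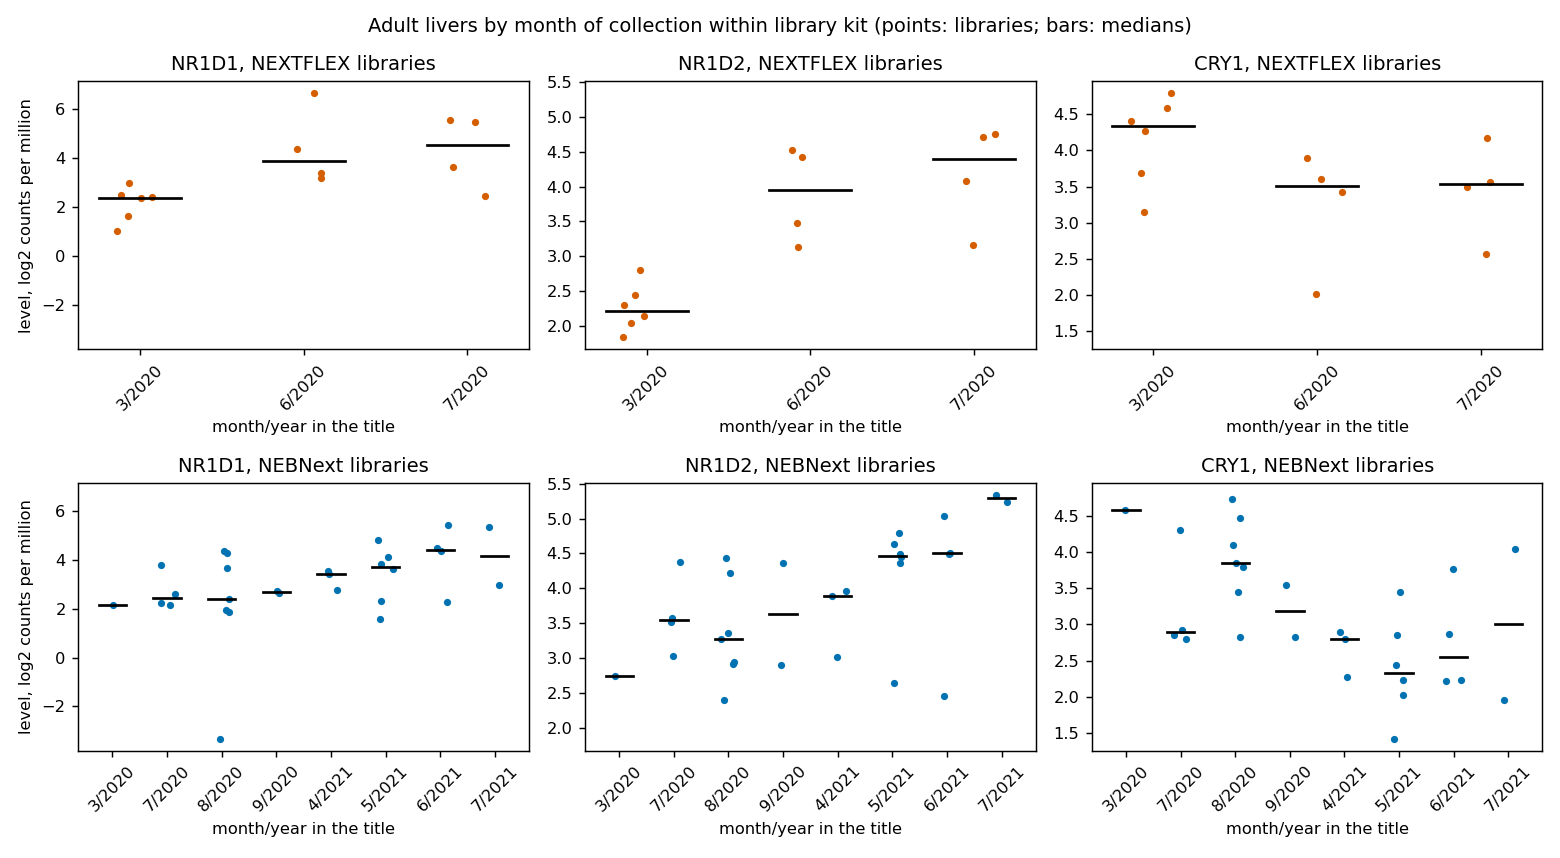
Level of NR1D1, NR1D2 and CRY1 in adult livers by month and year in the title, for NEXTFLEX (top) and NEBNext (bottom) libraries, in log2 CPM. Points are libraries and bars are medians. In the NEXTFLEX livers the 6 values of March for NR1D2 lie between 1.84 and 2.80, below all 8 of June and July, and no such step is seen in the NEBNext livers.

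Within the pouch period, PER2 rose with age by 0.23 per 10 days (SE 0.07, limma adjusted p = 0.0087), PER3 by 0.20 (SE 0.05, limma adjusted p = 0.0046) and NR1D1 by 0.12 (SE 0.05, limma adjusted p = 0.046), over 33 livers with kit as a covariate. These 3 of 9 compare with 7.58% of all genes that rose and 19.1% that fell with age. In the NEBNext livers alone PER2 and PER3 were called (0.27 and 0.25) and NR1D1 was not. HLF (0.17), BHLHE40 (0.18) and BHLHE41 (0.21) rose as well, while the 7 red cell precursor genes all fell, with a median of -1.04. No member differed between male and female adults, with 0.123% of 17849 genes higher and 0.0952% lower in males, and the largest member difference was -0.71 for PER1 (limma adjusted p = 0.729). No member and no other of 18182 genes differed between colony and wild pouch young.

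The levels of mother and young were also compared across pairs. Over 11 pairs, with 1 young a mother and values centred by stage and kit, the correlation across pairs had a median of 0.05 for the members and 0.108 for all genes. None of 9 members had an exact p under 0.05 over 86400 permutations, against 5.81% of all genes. NR1D2 was farthest from 0 (r = -0.424, exact p = 0.191). With the juvenile of the mother with 2 young included (12 pairs), NR1D2 had r = -0.21, and CRY1 and TEF were farthest (both 0.375). No gene passed adjustment, and with 11 pairs weaker relations were not detectable.

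Kidneys (308137 to 31393983 reads on genes) and brains (1154619 to 24428708) of pouch young gave a comparison between tissues, with the animal as a block. Some of these animals had no liver in the comparison, the age ranges of the tissues differed, and age was not in the fit. In kidneys 3 members were higher and 2 lower than in liver, where 57.8% of all genes were higher and 10.8% lower, and the median of all genes was 0.95 above the liver. In brains 5 were higher and none lower, where 49.5% were higher and 21.5% lower and the median was 0.74 above the liver. The scaling therefore bears on these calls, and only the differences that kept their call with scaling to the 75th percentile, added after the values were seen, are given a direction. With that scaling 33.2% of all genes were higher and 22.5% lower in kidney than in liver, 33.3% and 31.3% in brain than in liver, and 20.8% and 26.2% in brain than in kidney.

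CLOCK was higher in both tissues. It ran from 2.74 through 3.78 to 4.94 in 9 kidneys and from 3.11 through 4.02 to 5.43 in 8 brains, against a median of 1.86 in liver, with overlap. The difference from liver was 2.06 in kidney and 2.33 in brain (limma adjusted p = 3.81e-07 and 5.61e-08), and 1.37 and 1.70 with scaling to the 75th percentile. CRY2 was lower in kidney, at -0.02 through 1.06 to 2.93, and higher in brain, at 2.85 through 4.23 to 5.28, with liver between at a median of 2.65. The differences from liver were -1.33 and 1.60 (limma adjusted p = 1.79e-04 and 2.15e-05), and brain was above kidney by 2.94 (SE 0.36, limma adjusted p = 8.84e-10). The CRY2 values of kidney rest on few reads, with a median of 13 and at most 3 reads in 2 of 9 kidneys. Between brain and kidney only CRY2 and TEF (1.03, SE 0.27, limma adjusted p = 0.00106) were called, where 18.8% of all genes were higher in brain and 26.8% lower. With the animal as a fixed block, over animals with both tissues (6 for kidney and 5 for brain against liver), CLOCK and CRY2 were the members called. The values were 1.70 and -0.97 in kidney (limma adjusted p = 0.0129 and 0.0493), where 34.7% of all genes were higher and 8.99% lower, and 2.67 and 1.93 in brain (limma adjusted p = 0.00697 and 0.00116), where 32.9% were higher and 20.8% lower. The 6 animals with kidney and liver include the kidney with 308137 reads on genes.

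PER1 was lower in kidney than in liver by 0.92 (-0.92, limma adjusted p = 0.0169) and NR1D2 was higher in brain by 1.22 (limma adjusted p = 4.32e-05), and both calls were made under both scalings. With the animal as a fixed block neither was called, at -0.42 and 0.89 (limma adjusted p = 0.295 and 0.0507). The higher CRY1 in both tissues, TEF in brain and NR1D2 in kidney were lost with the other scaling, under which PER2, PER3, NR1D1 and TEF were also called lower in kidney and PER1 lower in brain. PER2, PER3 and NR1D1 had medians of 0.75, 2.57 and 0.83 in kidney and 1.38, 2.76 and 1.75 in brain. Sequencing was shallow in some of these libraries, and the kidney with 308137 reads had none of PER1, PER2, PER3 or NR1D1. The kidney median of NR1D1 (0.83) equals the value that depth gives that library without reads.

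In Sandy, a male pouch young of 22 dpp sampled for 13 tissues with 1 library each, NR1D1 was at its lowest in the liver (0.98), also with scaling to the 75th percentile (1.66), which was added after the values were seen. The median of all genes lay between 0.32 and 1.14 above the liver in the other tissues, so the order of nearby tissues depends on the scaling. CLOCK (2.69), NR1D2 (4.28) and ARNTL (3.79) were also lowest in the liver as deposited, but with the other scaling 3, 4 and 5 tissues lay below it. As deposited, NR1D1 reached 4.23 in bladder, and TEF ran from 3.84 in spleen to 5.19 in heart, whereas with the other scaling TEF was highest in liver (5.79). On the deposited scale PER1 ran from 3.09 in brain to 5.96 in heart and was at 5.92 in skin, 5.81 in lung and 5.76 in muscle, and with the other scaling muscle was highest (6.09). The eye was highest for CRY1 (5.92) under both scalings, and for CLOCK (4.45), NR1D2 (5.97) and ARNTL (6.04) only as deposited. PER2 was highest in small intestine (4.74) and lowest in spleen (2.42), PER3 ran from 3.67 in brain to 5.41 in bladder, and CRY2 from 2.66 in spleen to 4.88 in brain, although with the other scaling CRY2 was highest in muscle (5.09). These tissues were taken from 1 animal at 1 time and have no replicates.

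Tissues of 1 animal were taken at 1 time, and levels were compared between tissues across animals. Between kidney and liver of 6 animals all 9 members were positive, as were 79.8% of all genes, with a median r of 0.596, equal to that of all genes (0.596). PER3 and CRY1 (both r = 0.838) and 27.2% of all genes had an exact p under 0.05. These 6 animals include the kidney with 308137 reads on genes, which had 4 reads of CRY1 and none of PER3, so its PER3 value was set by depth, and no relation is read from them. Between kidney and brain of 7 animals PER3 (r = 0.803, exact p = 0.0214) and NR1D2 (r = 0.705, exact p = 0.0466) did, as had 16.9% of all genes, and 7 of 9 members and 79.3% of all genes were positive. The shallow kidney is not among these 7. No member or other gene passed adjustment in either pair of tissues.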

How the data were processed

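The deposited table gives per library a log2 value of reads per gene, named RPKM by the authors but without gene length, that is log2 CPM of uniquely mapped reads. Per the labels, reads were trimmed with Trim Galore 0.6.7 and aligned with HISAT2 2.2.1. Whole reads were recovered, with a listed zero standing for 0.9 read (100.0% of 1589137 values of low read number whole within 0.01). Genes with reads in at least 7 libraries were tested with limma 3.58.1 on the deposited log2 values without a further pseudocount, with Benjamini-Hochberg adjustment over all genes at 0.05. Tissues used the animal as a block (within-animal correlation 0.336). Arithmetic means of CPM are given where few livers were high. Correlations used values centred by kit and 100000 permutations. The samples are separate animals except for the tissues. Of 23816 rows, 427 shared a name with another row. Fits were tested on simulated data, where the stage fit recovered 200 of 200 changed genes with 17 false calls, and the spread fit 172 of 200. The simulated spread between animals was smaller than that of any member in the livers. Changes were placed only on genes with enough reads. The power of these fits for the members was therefore not measured. Members and gene lists were chosen with earlier results of these data known. Named genes were the members, the listed clock genes and, per member, the 5 highest and 3 lowest correlated genes in adults and 3 highest in pouch young. Listed genes absent by symbol (among them ALB, CIRBP and RBM3) were not analysed here. Some genes that this rule names are not reported here.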

Additional observations from a re-analysis of the deposited data

Results flagged for a closer look

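Of 90 groups of 4 to 10 libraries tested for a library far from the rest, 10 held one, where chance gives about 5%. Among the 7 juvenile livers, 1 animal (Sheila) was highest for NR1D1 (6.42, next 3.53), NR1D2 (5.70, next 4.71) and TEF (6.55, next 4.67). Among kidneys, PER1 was highest at 3.89 in Sandy (next 2.30) and CRY1 lowest at 2.98 in the shallowest library (next 4.19), and among brains NR1D2 was highest at 6.63 (next 5.29). Among NEBNext adult livers of 1 month, CRY1 was highest at 4.30 in July of the earlier year (next 2.92), NR1D1 lowest at -3.33, with no reads, in August of that year (next 1.87), and CLOCK and NR1D2 lowest at 1.18 and 2.64 in May of the later year (next 2.91 and 4.36). The slopes of PER2 with CRY1 (-0.64) and of PER3 with CRY1 (-0.75) differed between adults and pouch young by a test of the difference over 77 livers. Neither was called in the NEBNext livers alone, and PER2 with CRY1 was not called with the age of the pouch young removed.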

How the results depend on the processing

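Of 1557 values recomputed under the alternatives, 1436 kept their side of the threshold, 97 of them values not called whose sign changed, 78 lost and 39 gained a call, and 4 values not called in the reported fits were called with the opposite sign. These 4 are pouch young pairs, PER2 with CLOCK (slope 0.45), PER3 with CLOCK (0.40) and CRY1 with CLOCK (0.59) with the hepatocyte level as a covariate, and CRY1 with CLOCK (1.84) in NEXTFLEX alone. Counts of called members that moved by over 1.5 times were as follows. Juveniles against adults fell from 5 to 2 in NEXTFLEX alone and to 3 in NEBNext alone, without Sheila, with no filter and with own mothers. Pouch young against juveniles went from 1 to 2 with values below 0 set to 0, a pseudocount of 0.1, 75th percentile scaling, voom or without the livers titled Cors or Rav, and to 0 in NEXTFLEX alone, NEBNext alone or without Sheila. The spread went from 3 to 5 with values below 0 set to 0, to 0 in NEXTFLEX alone and to 1 in NEBNext alone or without Cors and Rav. Kidney and brain against liver fell from 5 each to 2 with the animal as a fixed block. Adult pairs fell from 8 to 2 in NEXTFLEX alone and to 5 without Cors and Rav. Pouch young pairs went from 4 to 11 with no covariate, 1 in NEXTFLEX alone and 7 with the hepatocyte level. Pairs that differ fell from 2 to 0 in NEBNext alone and to 1 with age removed. By Spearman rho, kidney with liver fell from 2 to 0 and kidney with brain from 2 to 1, also 1 without Sandy. The cause of these changes was not tested. Adult PER2 and PER3 rest on medians of 22 and 18 reads, which limits their precision. No paired analysis was possible because the labels carry no replicate numbers shared between groups, other than the pairs of mother and young and the tissues of 1 animal given above.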

Other observations

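Other gene lists were counted in pouch young against adult livers, where 47.3% of all genes were higher and 22.6% lower with a median of 0.36. Of 7 immediate early genes tested, 5 were higher and none lower in pouch young, with a median difference of 1.11. Of 13 genes that respond to fasting and feeding, 4 were higher and 7 lower (median -0.62). Of 8 glucocorticoid-responsive genes, which include the member PER1, 1 was higher and 2 were lower (median -0.24). Among markers of other cells, 3 of 4 bile duct genes (median 2.49), 3 of 4 stellate cell genes (2.01) and 4 of 5 endothelial genes (0.53) were higher in pouch young and none lower, while 3 of 8 leukocyte genes were higher and 3 lower (0.04). Their part in the differences of the clock genes was not tested.

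In the tongue, sampled once from an adult (Puku) and once from her juvenile (Sheila), NR1D1 was at 7.11 and 5.97 and PER1 at 6.86 and 6.33. As deposited, these values lay above those of the 13 tissues of Sandy, an animal of another age.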
